A study of Mus musculus with 8 samples.

Results

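The liver lobule is patterned along the path of the blood, and 10 genes that mark its ends in hepatocytes were followed here among the 56884 genes counted in the livers of aged obese mice. They were taken as named genes, 5 from the pericentral end (Glul, Oat, Slc1a2, Rhbg and Axin2) and 5 from the periportal end (Hal, Sds, Gls2, Pigr and Hsd17b13), by their known place in the lobule. Earlier results of these data were known at the time, so counts of called genes among them are descriptions. The livers came from 8 female C57BL/6J mice of 18 months, each giving 1 library of poly(A) RNA. From the age of 2 months all of them ate a high-fat diet (lipids 45%, protein 20% and carbohydrate 35% of the energy), and after 4 months the mice were divided at random into 2 groups. The DIO group (diet-induced obese, 3 libraries, replicates 1, 4 and 5) stayed on this diet. In the DIO + DHA group (5 libraries, replicates 1, 2, 4, 5 and 6), 15% by weight of the diet's lipids was replaced by an oil concentrate rich in docosahexaenoic acid (DHA, an n-3 fatty acid), with 683.4 mg DHA and 46.7 mg of the related EPA in each gram. The tocopherols of the concentrate were also given to the DIO group, and the mice were fasted overnight before sacrifice, so every value below is that of a fasted liver. No lean or young group was analysed here, and the concentrate changed several fatty acids together.

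Blood enters the lobule at the portal tracts and leaves through the central vein. Periportal hepatocytes, which meet it first, take up amino acids, break down glutamine, make urea and glucose and carry out much of the catabolism of histidine and serine. The last hepatocytes around the central vein capture the ammonia that escaped and fix it in glutamine, and their gene programme depends on Wnt ligands from the endothelium of the central vein, which act through β-catenin and TCF factors. Because these genes are read in whole liver, a difference between groups is one of the RNA pool: fewer cells of a type and less RNA per cell cannot be told apart, and where in the lobule a transcript lay was not measured.

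The libraries held between 1723800 and 5690347 counts, and the shallowest was DIO replicate 1. Levels are given as CPM, the counts scaled to library size and by the trimmed mean of M-values (TMM). They were not divided by gene length, because reads came mostly from 3′ ends. Whether molecular identifiers were collapsed is not given, so an order of genes by CPM is taken as an order of reads and not of transcripts. Hepatocyte markers (Alb, Apob, Ttr and 5 others) summed to 91622 to 97765 CPM in the DIO libraries and 92340 to 106466 CPM in the DIO + DHA libraries, so the tissue label held. Transcripts of 2 tissues that are not liver moved with the groups. The 19 skeletal muscle markers, led by Acta1, summed to 36.4 to 43.5 CPM in DIO and to 1409 to 1528 CPM in DIO + DHA, with 19 of 19 higher, and the 11 squamous epithelium markers, led by Krt4, summed to 0 to 0.361 CPM in DIO, where 9 of them had no count in any library, and to 50.9 to 54.8 CPM in DIO + DHA.

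All 10 zonation genes passed the filter on low counts. In the comparison of DIO + DHA with DIO, 5 of the 10 were called by the quasi-likelihood test of edgeR at a Benjamini-Hochberg adjusted p under 0.05, against 15.2% of the 12412 genes tested. The tested genes include many with few reads, and the 10 were not matched to them for level. Oat and Axin2 were higher in DIO + DHA (7.89% of all tested genes were called higher), and Glul, Slc1a2 and Sds were lower (7.28% of all tested genes). Both directions occurred at the pericentral end. Of the 5 pericentral genes, 2 rose, 2 fell and 1 was not called, with a median log2 fold change of -0.41. Of the 5 periportal genes, 1 fell and 4 were not called, with a median of -0.18, and no periportal gene was called higher by edgeR, DESeq2 or limma-voom, with 1 (Hal) higher at an unadjusted p under 0.05. The median over all tested genes was 0.00. In 8 of the 10 the libraries of the groups did not overlap, which held for 18.4% of all tested genes. At the threshold used in the study, a limma-voom log-odds B above 0 that 6.93% of all tested genes passed, 3 of the 10 were called: Glul, Oat and Slc1a2.

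**Figure D1:**
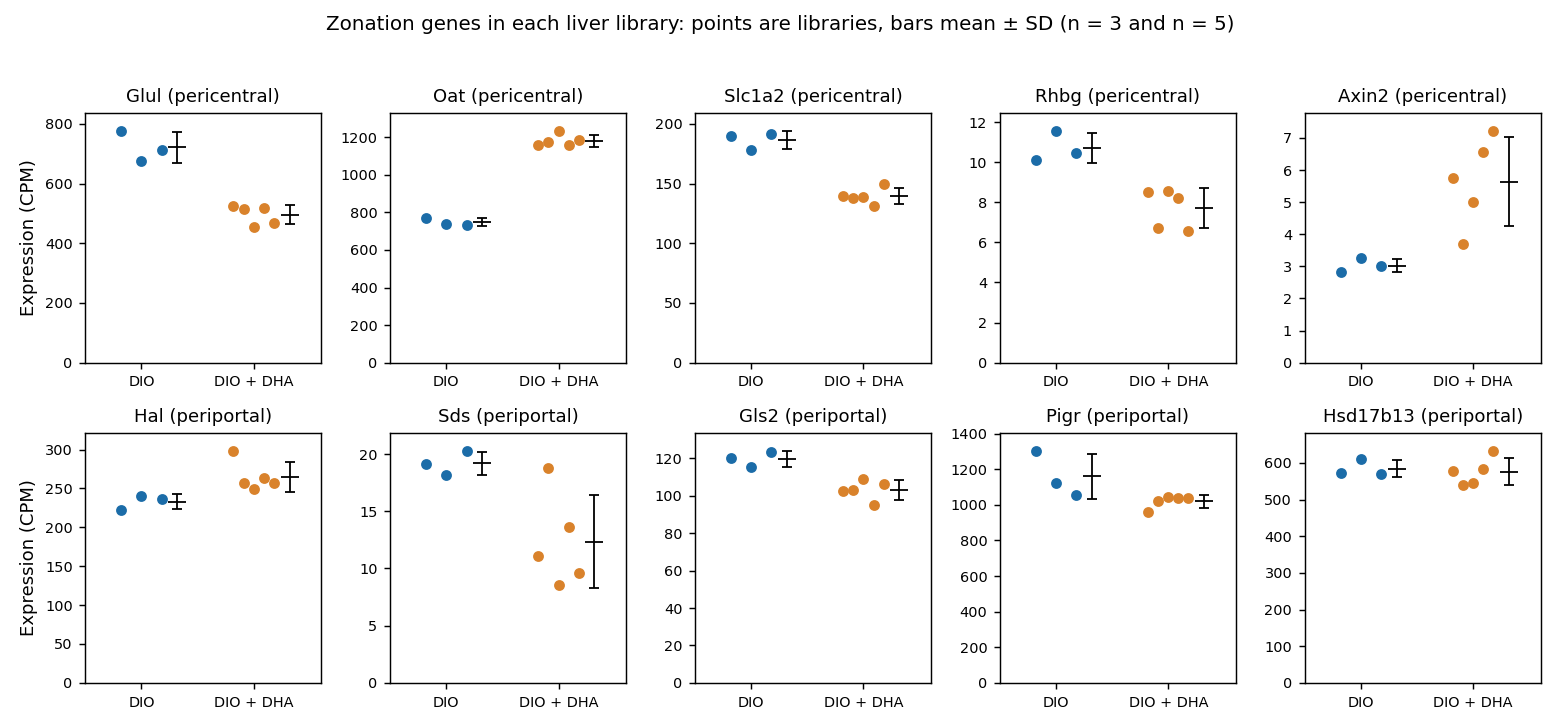
Level of each zonation gene in CPM (vertical axes, each from 0) in the 3 DIO (blue) and 5 DIO + DHA (orange) libraries, with pericentral genes above and periportal genes below. Points are libraries, and bars are the mean ± SD of a group. The DIO + DHA libraries sit below all DIO libraries for Glul and Slc1a2 and above them for Oat, while those of Sds spread from 8.56 to 18.8 CPM.

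Pericentral genes are usually read as the output of Wnt signalling, so an annotated start of each pericentral gene that was called is shown. Each sequence is the 250 bases upstream of that transcription start, 5′ to 3′ on the strand of the gene. The sequences are those of RefSeq on GRCm38.p6, which held 7 of the 10 genes. Their positions were not matched to the gene positions below, which are on another build. A printed start may thus not be that of the counted gene. Capitals mark letters that match a TCF/LEF motif, searched on both strands as CTTTGAA or CTTTGAT and as CTTTGTA or else CTTTGTT.
Glul, chr1:153899679-153899928, plus strand: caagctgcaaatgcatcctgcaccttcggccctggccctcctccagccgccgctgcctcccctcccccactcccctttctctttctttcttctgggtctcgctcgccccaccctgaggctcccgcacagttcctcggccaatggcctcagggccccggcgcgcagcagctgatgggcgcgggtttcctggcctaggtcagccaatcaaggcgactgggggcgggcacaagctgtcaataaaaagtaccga
Slc1a2, chr2:102706188-102706437, plus strand: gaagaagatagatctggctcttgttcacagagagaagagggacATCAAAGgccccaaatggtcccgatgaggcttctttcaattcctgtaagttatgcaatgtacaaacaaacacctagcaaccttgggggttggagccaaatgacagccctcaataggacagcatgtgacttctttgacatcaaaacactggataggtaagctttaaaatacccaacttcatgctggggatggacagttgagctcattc
Oat, chr7:132576399-132576648, minus strand: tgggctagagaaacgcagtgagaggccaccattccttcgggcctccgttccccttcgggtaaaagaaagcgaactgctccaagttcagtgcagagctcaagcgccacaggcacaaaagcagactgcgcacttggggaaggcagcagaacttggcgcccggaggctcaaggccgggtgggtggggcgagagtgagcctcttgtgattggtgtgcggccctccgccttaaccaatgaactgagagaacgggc
Axin2, chr11:108920099-108920348, plus strand: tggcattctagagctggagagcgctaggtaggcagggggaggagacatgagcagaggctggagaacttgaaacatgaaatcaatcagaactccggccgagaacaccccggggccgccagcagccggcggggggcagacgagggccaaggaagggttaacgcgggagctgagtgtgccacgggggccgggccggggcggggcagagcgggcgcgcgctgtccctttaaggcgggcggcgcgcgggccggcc
Glul and Slc1a2 fell, and Oat and Axin2 rose. Of these 4 promoters only that of Slc1a2 held a match, CTTTGAT read on the opposite strand, 207 to 201 bases before the start. Over the 7 promoters found, the other match was in the periportal gene Hal, CTTTGAT on its own strand, 199 to 193 bases before the start, so 2 of 7 held a match against 14.8% of the 32851 mouse promoters of the same length. A match describes letters only, and its absence says only that these letters are not in this window.

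Glul, glutamine synthetase, joins ammonia to glutamate in the last layer of hepatocytes around the central vein. It lies on chromosome 1 (ENSMUSG00000026473.17, 153775690 to 153785469, plus strand, GRCm39; all gene positions below are on this build). The DIO libraries 1, 4 and 5 held 775, 675 and 714 CPM of Glul, and the DIO + DHA libraries 1, 2, 4, 5 and 6 held 525, 513, 454, 519 and 470 CPM. Every DIO library was above every DIO + DHA library. The mean was 721 ± 50.7 CPM (n = 3, SD) in DIO and 496 ± 32.4 CPM (n = 5, SD) in DIO + DHA, and Glul fell by 31.0%, with a log2 fold change of -0.54 (SE 0.07) and a Benjamini-Hochberg adjusted p of 4.46e-09 from edgeR. The coefficient of variation within the groups was 7.03% and 6.52%, above the 2.03% and 2.34% of counting alone.

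Slc1a2 encodes GLT-1, a glutamate transporter known best from astrocytes, which in liver is found in the same perivenous cells as glutamine synthetase and brings in its substrate. The gene is on chromosome 2 (ENSMUSG00000005089.16, 102489004 to 102621129, plus strand). Its levels were 190, 178 and 191 CPM in DIO and 140, 138, 139, 132 and 149 CPM in DIO + DHA. The groups did not overlap, and both were as tight as counting allows, with coefficients of variation of 3.96% and 4.57% against 4.04% and 4.39% from counting. Slc1a2 fell from 186 ± 7.38 CPM (n = 3, SD) to 140 ± 6.38 CPM (n = 5, SD), by 0.41 on the log2 scale (SE 0.07, edgeR adjusted p of 2.29e-05).

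Oat, ornithine aminotransferase, is a mitochondrial enzyme that turns ornithine into glutamate semialdehyde, and it is found in the same layer as Glul. The locus is on chromosome 7 (ENSMUSG00000030934.10, 132159207 to 132178127, minus strand). Oat measured 771, 738 and 735 CPM in the DIO libraries and 1157, 1173, 1232, 1157 and 1184 CPM in the DIO + DHA libraries. The groups were far apart for their spread, with coefficients of variation of 2.67% and 2.60%. Oat rose 1.58-fold, from 748 ± 19.9 CPM (n = 3, SD) to 1181 ± 30.7 CPM (n = 5, SD), with a log2 fold change of 0.66 (SE 0.06) and an adjusted p of 1.24e-12 by edgeR. Oat is expressed in many tissues, and the skeletal muscle and squamous epithelium markers given above rose in the same 5 libraries. Over the 8 libraries, the 3 genes most like Oat among 6223 with a mean of at least 10 CPM were Sln, Krtdap and Tcap, all with a Pearson r of 0.997 in log2 CPM. Sln and Tcap are muscle genes and Krtdap is a gene of squamous epithelium. The libraries form 2 groups, so r includes the difference between them and is given as a description. The part of these tissues in the rise of Oat was not tested.

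Glul and Oat, which share the perivenous layer, moved in opposite directions. On the log2 CPM scale Oat minus Glul was -0.01, 0.13 and 0.04 in the DIO libraries and 1.14, 1.19, 1.44, 1.15 and 1.33 in the DIO + DHA libraries. The mean of this difference moved by 1.20 between the groups, with no overlap. It is given with no test of its own, since the 2 genes were each tested above.

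Axin2, a scaffold of the complex that destroys β-catenin, is itself induced by Wnt signalling and is used widely as its readout. It lies on chromosome 11 (ENSMUSG00000000142.16, 108811175 to 108841609, plus strand), and it had the fewest reads of the 10 genes. Only 5, 18 and 17 reads were counted in the DIO libraries and 29, 11, 14, 28 and 33 in the DIO + DHA libraries. Scaled to depth this gave 2.81, 3.25 and 3.02 CPM in DIO and 5.75, 3.69, 4.99, 6.56 and 7.21 CPM in DIO + DHA. The groups did not overlap, although the lowest DIO + DHA library, replicate 2, was close to the highest DIO library. The mean rose from 3.03 ± 0.217 CPM (n = 3, SD) to 5.64 ± 1.37 CPM (n = 5, SD), a log2 fold change of 0.90 (SE 0.29) with an adjusted p of 0.0207 by edgeR. This call rested on few reads. The adjusted p was 0.0976 with the Wald test of DESeq2. With edgeR it was 0.0662 without DIO replicate 4 and 0.0916 without DIO replicate 5. It was 0.0506 and 0.0671 by edgeR when DIO + DHA replicate 5 or 6 was left out. Skeletal muscle and squamous epithelium markers also rose in the DIO + DHA libraries, and their part in the rise of Axin2 was not tested.

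The gene Rhbg encodes an ammonia transporter of the Rh family that sits in the membrane of perivenous hepatocytes. It is on chromosome 3 (ENSMUSG00000104445.2, 88150181 to 88162016, minus strand). Rhbg was counted 18, 64 and 59 times in DIO and 43, 20, 24, 35 and 30 times in DIO + DHA, which is 10.1, 11.5 and 10.5 CPM against 8.53, 6.70, 8.56, 8.20 and 6.55 CPM. All DIO + DHA libraries were below all DIO libraries, but the test was not passed, with means of 10.7 ± 0.737 CPM (n = 3, SD) and 7.71 ± 0.999 CPM (n = 5, SD), a log2 fold change of -0.49 (SE 0.19) and an edgeR adjusted p of 0.0843. The fitted difference was close to that of Glul, with counting errors of 17.1% and 18.8% against 2.03% and 2.34% for Glul. In the annotation 61.4% of its exon bases are shared with Gm38392 on the same strand, which had 0 counts in all libraries, and 0% of its last 500 bases are shared.

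**Figure D2:**
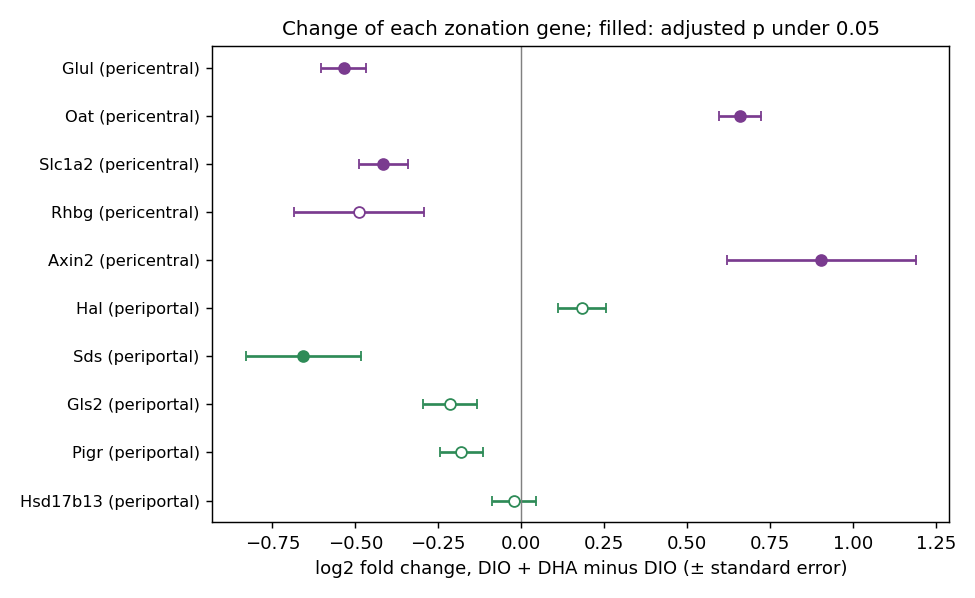
Log2 fold change (DIO + DHA minus DIO, horizontal axis) of the 10 zonation genes with the standard error of edgeR's fit as bars, pericentral genes in purple and periportal genes in green. Filled points have an adjusted p under 0.05. The pericentral genes fall on both sides of 0, from -0.54 for Glul to 0.90 for Axin2, and 4 of the 5 periportal genes lie between -0.21 and 0.18.

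Of the periportal genes, Gls2 is the liver glutaminase, which releases ammonia from glutamine for the urea cycle at the other end of the lobule from Glul. It lies on chromosome 10 (ENSMUSG00000044005.14, 128030326 to 128045873, plus strand). Gls2 measured 120, 115 and 123 CPM in DIO and 103, 103, 109, 95.1 and 106 CPM in DIO + DHA. The groups did not overlap, and the coefficients of variation, 3.43% and 4.99%, were no larger than those of counting, 5.06% and 5.09%. The log2 fold change was -0.21 (SE 0.08) with an edgeR adjusted p of 0.0624, so Gls2 was not called, with means of 120 ± 4.10 CPM (n = 3, SD) and 103 ± 5.15 CPM (n = 5, SD). Leaving out DIO + DHA replicate 4 or 6 gave an adjusted p of 0.0484 or 0.0424, and library size as the only scaling gave 0.029. Of its last 500 bases 19.4% are shared with Spryd4 on the opposite strand, which was not called.

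Transcripts for glutamine synthesis (Glul) and breakdown (Gls2) were compared within each library, as a difference that does not depend on how libraries are scaled. Glul minus Gls2 on the log2 CPM scale was 2.68, 2.54 and 2.53 in DIO and 2.35, 2.31, 2.06, 2.44 and 2.14 in DIO + DHA. All DIO libraries were above all DIO + DHA libraries. The mean was 2.58 ± 0.0844 (n = 3, SD) against 2.26 ± 0.158 (n = 5, SD), a difference of -0.33 with an exact two-sided permutation p of 0.0357 over 56 regroupings, where the smallest p possible is 0.0179. Without any 1 library the difference ran from -0.37 to -0.27 and the exact permutation p from 0.0286 to 0.0952, and it stayed under 0.05 only without DIO + DHA replicate 5. The smallest permutation p possible was 0.0476 without a DIO library and 0.0286 without a DIO + DHA library. Both genes were tested above and were chosen with earlier results of these data known, so this p adds no separate support.

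Hal, histidine ammonia-lyase, opens the breakdown of histidine and is a classical periportal enzyme. The gene is on chromosome 10 (ENSMUSG00000020017.15, 93324630 to 93355166, plus strand). Hal stood at 222, 240 and 236 CPM in DIO and 298, 257, 249, 263 and 257 CPM in DIO + DHA. The groups did not overlap, but the lowest DIO + DHA library exceeded the highest DIO library by less than the SD of either group, and the gene was not called, with means of 233 and 265 CPM, coefficients of variation of 4.04% and 7.17% (n = 3 and n = 5), a log2 fold change of 0.18 (SE 0.07) and an edgeR adjusted p of 0.0835.

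Sds, serine dehydratase, breaks serine down to pyruvate and feeds glucose synthesis in fasted liver. Its locus is on chromosome 5 (ENSMUSG00000029597.15, 120614591 to 120621997, plus strand). It was counted 34, 101 and 114 times in DIO and 56, 56, 24, 58 and 44 times in DIO + DHA, or 19.1, 18.2 and 20.2 CPM against 11.1, 18.8, 8.56, 13.6 and 9.61 CPM. The DIO libraries were alike and the DIO + DHA libraries were not: replicate 2 lay within the DIO range and replicate 4 was the lowest. The coefficient of variation was 5.26% in DIO and 32.98% in DIO + DHA, where counting alone gives 12.7% and 15.3%. Sds fell from 19.2 ± 1.01 CPM (n = 3, SD) to 12.3 ± 4.07 CPM (n = 5, SD), with a log2 fold change of -0.66 (SE 0.17) and an adjusted p of 0.00458 by edgeR. The adjusted p was 0.0524 without DIO replicate 5.

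The Sds count is uncertain for a further reason. Of its exon bases 29.6%, and of its last 500 bases 72.0%, are shared with Plbd2 and Gm15690 on the opposite strand, and counting used no strand and left out reads that fell in shared bases. Plbd2 was not called, at 60.8 ± 5.01 CPM (n = 3, SD) in DIO and 57.5 ± 4.73 CPM (n = 5, SD) in DIO + DHA. Gm15690 fell, from 9.35 ± 1.17 CPM (n = 3, SD) to 4.80 ± 0.993 CPM (n = 5, SD), with a log2 fold change of -0.95 (SE 0.23) and an edgeR adjusted p of 0.0019. Without strand, reads of a gene and of its antisense partner cannot be told apart.

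Pigr, the polymeric immunoglobulin receptor, carries immunoglobulin A across epithelial cells and, in rodents, from blood into bile. Chromosome 1 carries it (ENSMUSG00000026417.14, 130754421 to 130779986, plus strand). Its levels were 1300, 1122 and 1056 CPM in DIO and 958, 1023, 1047, 1040 and 1040 CPM in DIO + DHA. DIO replicate 1, the shallowest library, was the highest, and DIO replicate 5 was only just above the highest DIO + DHA library. Pigr was not called, with means of 1159 ± 126 CPM (n = 3, SD) and 1021 ± 36.4 CPM (n = 5, SD), a log2 fold change of -0.18 (SE 0.07) and an edgeR adjusted p of 0.0507. The edgeR adjusted p was 0.015 without DIO replicate 5, 0.0341 without DIO + DHA replicate 6 and 0.0158 with library size as the only scaling. Without DIO replicate 1 the log2 fold change was -0.09, with an adjusted p of 0.532. Transcripts of its cargo were not called either: Igha, the heavy chain of immunoglobulin A, stood at 20.0 ± 6.65 CPM (n = 3, SD) and 18.7 ± 2.42 CPM (n = 5, SD), and Jchain, which joins its units, at 8.27 ± 1.79 CPM (n = 3, SD) and 6.28 ± 0.824 CPM (n = 5, SD).

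Hsd17b13 is a lipid droplet enzyme of hepatocytes, known from human genetics of fatty liver disease. It lies on chromosome 5 (ENSMUSG00000034528.16, 104103306 to 104125276, minus strand). Hsd17b13 measured 573, 610 and 570 CPM in DIO and 578, 541, 544, 584 and 631 CPM in DIO + DHA. The groups overlapped throughout, at 585 ± 22.4 CPM (n = 3, SD) and 576 ± 36.7 CPM (n = 5, SD), with a log2 fold change of -0.02 (SE 0.07) and an edgeR adjusted p of 0.89. Its neighbour and closest relative Hsd17b11 (chromosome 5, 104137628 to 104169785, minus strand) rose from 850 ± 41.3 CPM (n = 3, SD) to 1235 ± 92.6 CPM (n = 5, SD), with a log2 fold change of 0.54 (SE 0.07) and an adjusted p of 3.19e-09 by edgeR. Within libraries, Hsd17b11 minus Hsd17b13 on the log2 CPM scale averaged 0.54 in DIO and 1.10 in DIO + DHA.

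Averaged within each class on the log2 scale, the opposite moves of the pericentral genes cancelled. Each gene has equal weight here, so Axin2, with the fewest reads, counts as much as Glul. The mean log2 CPM of the 5 pericentral genes was 6.38 in both groups, and that of the 5 periportal genes was 7.69 in DIO and 7.51 in DIO + DHA. The pericentral mean minus the periportal mean was -1.32, -1.30 and -1.31 in the DIO libraries and -1.07, -1.37, -1.04, -1.09 and -1.07 in the DIO + DHA libraries. Replicate 2 of DIO + DHA lay below the DIO range and the other 4 above it. The moves did not cancel in the summed CPM of the 5 pericentral genes, led by Oat. This sum was 1606 to 1749 CPM in DIO and 1817 to 1838 CPM in DIO + DHA. For the 5 periportal genes it was 2005 to 2235 CPM and 1943 to 2044 CPM. These averages and sums describe the chosen genes and were not tested.

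Of 36 other pericentral genes, all tested, 3 were called higher and 11 lower (38.9%, against 15.2% of all genes). Their median change was -0.16 on the log2 scale. The share over all genes includes many with few reads, where small changes are harder to call. Neither this list nor those below were matched to all genes for level. The 3 called higher were Aldh3a2 (log2 fold change of 0.27), Lhpp (0.73) and Cyp2c54 (1.11). The 11 called lower included Gstm3 (-1.07), Slc13a3 (-0.99), Cyp2a5 (-0.94), Cyp2c50 (-0.60), Rgn (-0.30), Cyp27a1 (-0.26) and Lect2 (-0.21). The 4 of the 11 with the most reads are described here. Cyp2e1, a cytochrome P450 that oxidizes ethanol and other small molecules, fell from 3150 ± 45.2 to 2706 ± 191 CPM (n = 3 and n = 5, SD), and the log2 fold change was -0.22 (edgeR adjusted p of 0.00738). Por, the reductase that passes electrons to the cytochromes P450, had a log2 fold change of -0.37 (adjusted p of 1.6e-05 by edgeR), Aldh1a1, a retinaldehyde dehydrogenase, of -0.35 (3.28e-05), and Akr1c6, a hydroxysteroid dehydrogenase, of -0.56 (3.54e-10). Mgst1 and Gstm1, both glutathione transferases, had the most reads among those not called, at 0.09 and 0.01. Gstm1 belongs to a family of near-identical copies, whose unique reads make its level uncertain.

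Of 23 other periportal genes, all tested, 8 were called higher and 4 lower (52.2%, against 15.2% of all genes), with a median of 0.11. Cyp17a1, a steroid hydroxylase, rose from 255 ± 19.2 to 466 ± 31.5 CPM (n = 3 and n = 5, SD), and the log2 fold change was 0.87 (edgeR adjusted p of 1.1e-14). Agxt, which removes glyoxylate, had a log2 fold change of 0.52 (8.57e-09), Cyp2f2, a cytochrome P450, of 0.45 (1.77e-06) and Tat, which opens tyrosine breakdown, of 0.24 (adjusted p of 0.0105 by edgeR). Albumin (Alb) and Fbp1, an enzyme of glucose synthesis, were not called, at 0.12 and -0.03. The 4 called lower had fewer reads than those named above: Uroc1 (-0.48), Ctsc (-0.49), Mfsd2a (-0.42) and Igfals (-0.54).

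All 4 mid-lobular genes were called, against 15.2% of all genes, and 3 of them were higher. Hamp, the iron hormone hepcidin, rose from 242 ± 13.7 to 722 ± 55.4 CPM (n = 3 and n = 5, SD), a log2 fold change of 1.57 with an adjusted p of 2.46e-25 by edgeR. Igfbp2, a carrier of insulin-like growth factors, rose from 289 ± 12.7 to 756 ± 56.7 CPM (1.38, 3.72e-23), and Cyp8b1, the sterol hydroxylase that sets the share of cholic acid, from 322 ± 28.0 to 614 ± 27.5 CPM (0.92, 2.7e-16). Hamp2 fell from 285 ± 18.6 to 221 ± 19.03 CPM (-0.37, 0.000131). Hamp and Hamp2 are near copies of each other, and reads that mapped to both were not counted, so the level of each is uncertain.

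**Figure D3:**
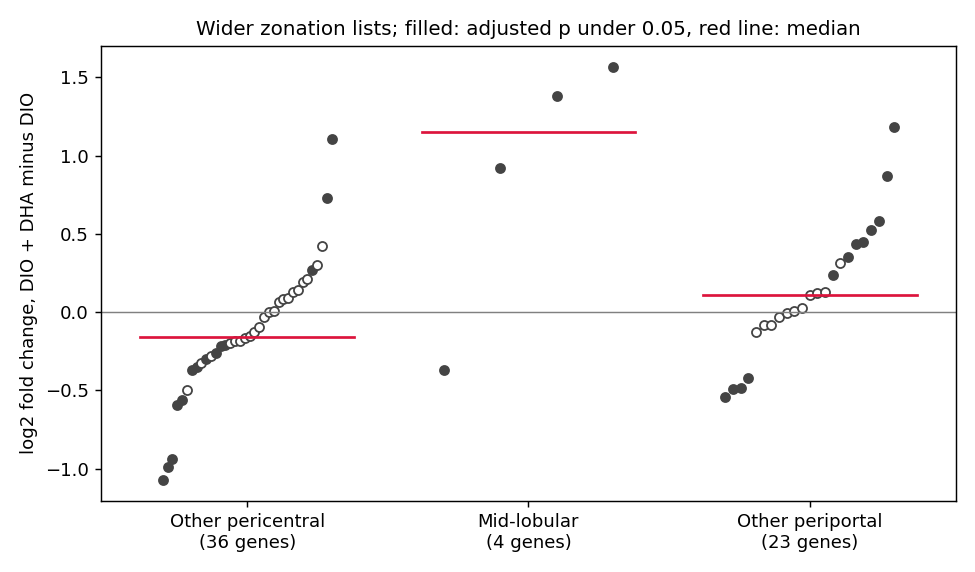
Log2 fold change (DIO + DHA minus DIO, vertical axis) of 36 other pericentral, 4 mid-lobular and 23 other periportal genes, each point a gene and the genes of a list in order of their change. Filled points have an edgeR adjusted p under 0.05, and red lines are the medians, -0.16, 1.15 and 0.11. Both outer lists hold genes called in each direction.

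The Wnt pathway of the lobule was read from 30 genes for ligands, receptors, the β-catenin complex, TCF factors and target genes. Of the 28 tested, 0 were called by edgeR, DESeq2 or limma-voom, where edgeR called 15.2% of all genes. At an unadjusted p under 0.05 by edgeR, 2 were higher and 4 lower, and the median log2 fold change was -0.08. Csnk1a1, a kinase of the β-catenin complex and the gene of the list with the most reads, stood at 68.0 ± 8.30 CPM in DIO (n = 3, SD) and 80.1 ± 8.87 CPM in DIO + DHA (n = 5, SD), with an edgeR adjusted p of 0.0553. The co-receptor Lrp6 had a log2 fold change of 0.08 (adjusted p of 0.767 by edgeR). Lgr5, a receptor for R-spondins and a pericentral Wnt target, had 5.02 and 4.399 CPM. Most of these genes had few reads, which limits what could be detected: 1 was called with the size factors of DESeq2, 2 when DIO replicate 1 or DIO + DHA replicate 4 was left out, and 1 when DIO + DHA replicate 1 or 6 was left out. Lgr5, Rnf43, Znrf3, Sp5 and Notum are also on the list of other pericentral genes. The 6 markers of central vein endothelium, led by Wnt2, summed to 20.8 to 25.8 CPM in DIO and 15.5 to 20.4 CPM in DIO + DHA, with 1 of the 5 tested (Kit) lower by edgeR and limma-voom and 0 called by DESeq2. Those of sinusoidal endothelium, led by Clec4g, summed to 227 to 245 CPM and 168 to 195 CPM, with 3 of 10 lower, and those of macrophages, led by Cd5l, to 392 to 454 CPM and 230 to 263 CPM, with 6 of 8 lower and 1 higher. Their part in the changes of the zonation genes was not tested. The bile duct markers, led by Spp1, gave 62.2 to 69.8 CPM and 63.0 to 77.4 CPM, with 1 of the 8 tested (Sox9) higher by edgeR, 0 called by DESeq2 or limma-voom, and Cldn4 at 0 in all libraries.

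Among the genes that handle glutamine, glutamate and ammonia beside the zonation genes, 18 were tested. Of these, 10 were called (55.6%, against 15.2% of all genes), 3 higher and 7 lower. Slc38a3, the glutamine transporter of hepatocytes, fell from 667 ± 25.3 to 538 ± 16.9 CPM (n = 3 and n = 5, SD), and the log2 fold change was -0.31 (edgeR adjusted p of 0.000204). Glud1, glutamate dehydrogenase, fell from 617 ± 23.3 to 494 ± 11.4 CPM (-0.32, 0.000136), Gpt, alanine aminotransferase, from 428 ± 30.3 to 322 ± 8.67 CPM (-0.41, 3.95e-06), and Otc, which takes ornithine into the urea cycle, from 393 ± 10.7 to 343 ± 5.22 CPM (-0.20, 0.0302). The urea cycle genes Arg1 and Cps1 were not called, at log2 fold changes of -0.01 and 0.11. Both are also on the periportal list, as are Ass1 and Asl.

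The 3 genes of this list that rose were picked out after their values were seen. Got1, the cytosolic aspartate aminotransferase, went from 127, 138 and 139 CPM in DIO to 260, 246, 273, 245 and 277 CPM in DIO + DHA, a log2 fold change of 0.94 (edgeR adjusted p of 3.62e-15). Slc25a22, a mitochondrial glutamate carrier, rose from 60.3 ± 4.19 to 128 ± 8.10 CPM (n = 3 and n = 5, SD, 1.07, 6.25e-15), and Slc25a15, the carrier that brings ornithine into mitochondria, from 153 ± 18.0 to 237 ± 7.61 CPM (0.65, 1.37e-09). The skeletal muscle and squamous epithelium markers rose in the same 5 libraries, and their part in these 3 rises was not tested. The direction was the same for Slc25a15 and Oat, which act in turn on ornithine. Got1 and Glud1, which both interconvert glutamate and 2-oxoglutarate, moved apart, with Got1 minus Glud1 averaging -2.19 in DIO and -0.93 in DIO + DHA on the log2 CPM scale.

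Of 16 tested genes around Hal, Sds and Oat, 7 were called (43.8%, against 15.2% of all genes), 4 higher and 3 lower. Uroc1, urocanase, which takes the product of Hal, fell from 247 ± 26.2 to 175 ± 10.1 CPM (n = 3 and n = 5, SD), and the log2 fold change was -0.48 (edgeR adjusted p of 1.27e-06). Amdhd1, which acts after Uroc1 and was picked out after its values were seen, rose from 158 ± 13.4 to 194 ± 2.59 CPM (0.28, 0.00558), and Ftcd, which acts after it, was not called (-0.08). Prodh, proline dehydrogenase, which makes the same semialdehyde as Oat from proline, fell from 267 ± 41.3 to 130 ± 11.8 CPM (n = 3 and n = 5, SD), or by 1.05 on the log2 scale (adjusted p of 2.42e-14 by edgeR). Aldh4a1, which oxidizes that semialdehyde to glutamate, was not called (-0.18, adjusted p of 0.0901). Agxt and Tat, given above, were among the 4 that rose, and Agxt, Tat, Uroc1, Ftcd, Gldc and Sdsl are also on the periportal list.

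**Figure D4:**
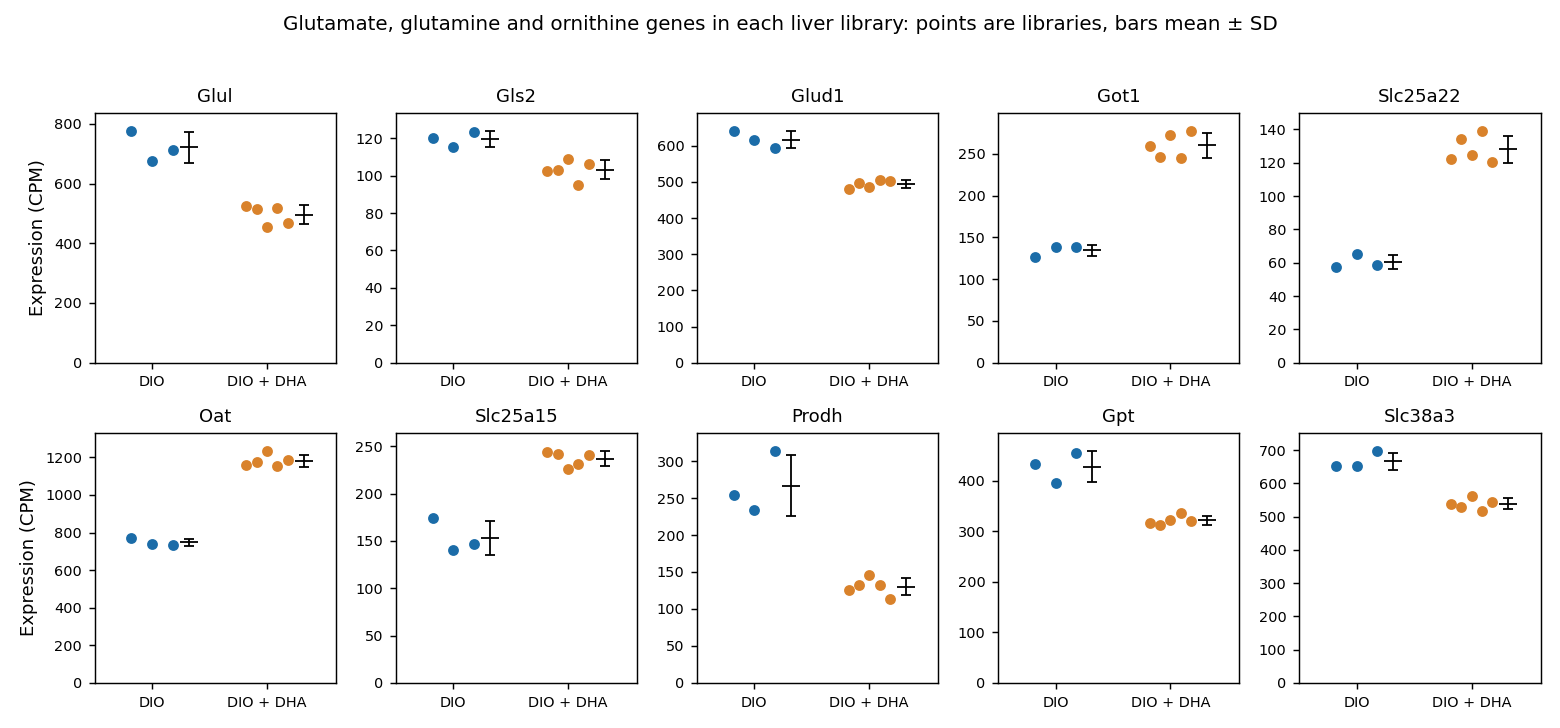
Level in CPM (vertical axes, each from 0) of 10 genes of glutamate, glutamine, ornithine and proline metabolism in the 3 DIO (blue) and 5 DIO + DHA (orange) libraries. Points are libraries and bars the mean ± SD of a group. Oat, Slc25a15, Got1 and Slc25a22 are higher in every DIO + DHA library, and Glul, Gls2, Glud1, Prodh, Gpt and Slc38a3 are lower in every one.

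Around Hsd17b13, lipid droplet genes moved although it was not called. Of 13 tested partners 9 were called (69.2%, against 15.2% of all genes), 7 higher and 2 lower, with a median of 0.45. Markers of skeletal muscle and squamous epithelium rose in the DIO + DHA libraries too, and their part in these 7 rises was not tested. Besides Hsd17b11, Plin2, the coat protein of hepatocyte droplets, rose from 859 ± 49.96 to 1222 ± 35.97 CPM (n = 3 and n = 5, SD), and the log2 fold change was 0.51 (edgeR adjusted p of 4.96e-09). Mgll, monoacylglycerol lipase, rose from 324 ± 17.4 to 471 ± 22.99 CPM (0.54, 1.05e-08). Dgat2, which makes triglyceride, fell from 353 ± 32.5 to 262 ± 20.1 CPM (-0.44, 4.97e-06), and Dgat1 and Plin3 were not called, at 0.13 and -0.23.

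Relatives of the zonation genes were mostly low or not called. Sdsl, a second serine dehydratase, stood at 53.0 ± 5.93 CPM in DIO (n = 3, SD) and 56.97 ± 8.49 CPM in DIO + DHA (n = 5, SD), with a log2 fold change of 0.13 (edgeR adjusted p of 0.505). Axin1, which has the role of Axin2 without being induced by Wnt, stood at 9.61 ± 1.19 CPM (n = 3, SD) and 9.74 ± 1.88 CPM (n = 5, SD), with a log2 fold change of 0.00 (edgeR adjusted p of 0.996). The ammonia transporters Rhcg and Rhag had no count in any library, and the glutamate transporters Slc1a1 and Slc1a3 had too few counts to be tested.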

How the data were processed

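Poly(A) RNA of each liver was turned by the authors into cDNA enriched for 3′ ends, with a molecular identifier in the primer. Trimmed reads were mapped to GRCm39 (STAR 2.7.9a) and assigned to GENCODE vM33 exons by featureCounts 1.6.0, with no option for strand, multi-mapping or overlap. What the authors deposited are raw counts of reads per gene. Whether identifiers were collapsed is not given in the sources used here, so counting errors cover counting only. Labels name separate mice, and all libraries carry batch 1.

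Group and replicate were taken from the labels. Symbols came from GENCODE vM39 (56323 of 56884 identifiers matched) and positions from the count tables. Genes with a count under 5 in over 50% of the libraries, in both groups, were not tested. After TMM scaling, the quasi-likelihood test of edgeR 4.0.16 (robust, R 4.3.3) was run with Benjamini-Hochberg adjustment over 12412 genes and a threshold of 0.05. The common biological coefficient of variation was 0.0801. Log2 CPM used a prior count of 2. DESeq2 1.42.0 and limma-voom 3.58.1 (B above 0, prior proportion 0.01), other scalings and filters, each library left out in turn and a replicate block were alternatives. The fit was also run on simulated counts with the same dispersion for every gene, unlike the data, and the outcome is not reported here. The libraries held 1723800 to 5690347 counts, so genes with few reads, such as Axin2, are imprecise.

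The zonation genes and all lists were chosen with earlier results of these data known. Named genes are the zonation genes, per list up to 4 called and 2 not called genes of largest mean CPM, every mid-lobular, immunoglobulin and related gene, and the top gene of each marker list, except 1 related gene that is not reported here. By the same rule the 3 genes most correlated with each called zonation gene were found. Got1, Slc25a22, Slc25a15, Amdhd1, Lgr5, Kit, Sox9, Cldn4 and the genes overlapping Rhbg, Sds and Gls2 were named outside this rule, after their values were seen. So were Aldh3a2, Lhpp, Cyp2c54, Ctsc, Mfsd2a and Igfals. The same holds for Gstm3, Slc13a3, Cyp2a5, Cyp2c50, Cyp2c37, Cyp2c29, Rgn, Cyp27a1 and Lect2. Promoter sequences are from RefSeq on GRCm38.p6.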

Additional observations from a re-analysis of the deposited data

Results flagged for a closer look

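One of the 10 zonation genes had a library that stood apart within the DIO + DHA group, the only group large enough for this check. For Pigr, DIO + DHA replicate 1 lay at 958 CPM below the other 4 libraries, and its gap to the nearest of them was 0.729 of the range of the group. Chance flags about 1 in 20 groups, and 10 genes were looked at.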

How the results depend on the processing

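Glul, Oat and Slc1a2 kept their calls and directions in all 18 alternatives, and Rhbg, Hal and Hsd17b13 were called in none. Zonation genes called higher numbered 1 instead of 2, with Axin2 lost, under the DESeq2 Wald test, under limma-voom B above 0 and with a replicate block, and ranged from 1 to 2 with a library left out. Those called lower numbered 5 instead of 3 with library size only, and ranged from 3 to 5, with 5 without DIO + DHA replicate 6 (Gls2 and Pigr added). Sds was not called at B above 0, and Pigr was called with the filterByExpr filter (adjusted p of 0.0405).

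Over all genes, B above 0 called 860, 463 higher and 397 lower, and the DESeq2 Wald test called 601 lower. With a library left out edgeR called 1432 to 1859 genes, 788 to 966 higher and 642 to 904 lower. The Wnt list had 1 call with DESeq2 size factors, 1 with TMM factors from genes outside the muscle and squamous lists and 0 to 2 with a library left out, and the glutamine list had 6 at B above 0. The Glul to Gls2 difference ran from -0.37 to -0.27 with a library left out. Replicates 1, 4 and 5 occur in both groups, but the labels name separate mice, so the numbers were not taken as pairs. Deviations of same-numbered libraries from their group means had correlations of -0.01, -0.01 and -0.01. Those of differently numbered libraries ran from -0.06 to 0.06. Many of the genes used had few reads, so these correlations could miss a shared block. On these 6 libraries 1570 genes were called with the replicate block and 1655 without it, and Axin2 had an adjusted p of 0.0565 and 0.0364. Counting error alone is 32.4% and 22.9% of the level for Axin2 (DIO and DIO + DHA) and 17.1% and 18.8% for Rhbg. The cause of these moves was not tested.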

Other observations

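For the other zonation genes that were called, the most similar genes over the 8 libraries by Pearson correlation of log2 CPM were C3 (r = 0.990), Noct (0.989) and Gm46133 (0.984) for Glul, Serpina3n (0.993), Nnmt (0.990) and Tyrobp (0.990) for Slc1a2, Il17rb (0.962), Ndufb3 (0.952) and Rnpepl1 (0.952) for Axin2, and Ankrd40 (0.978), Emc8 (0.955) and Xiap (0.945) for Sds. The libraries form 2 groups, so these values include the difference between the groups and are given as descriptions.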
